A study of Homo sapiens with 12 samples.

Results

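The genes described here were the host genes of small nucleolar RNAs (snoRNAs) of the SNHG series, most of them annotated as noncoding, together with GAS5, ZFAS1, EPB41L4A-AS1 and DANCR. Members were taken by symbol only, as SNHG followed by a number plus these 4 names. The rule itself uses no measured value, but the group was chosen for description with earlier results of these data known. The rule found 33 gene entries of the 58347 in the count tables, of which 29 carried the symbol in GENCODE 29 and 4 only in the current name table (SNHG29, listed as LRRC75A-AS1, SNHG30 as LINC02001, SNHG31 as AC016708.1 and SNHG32 as C6orf48). GENCODE 29 lists SNHG32 and an entry of SNHG28 as protein coding, and the RefSeq table places no snoRNA in SNHG27. Of the 33, 26 passed the filter on low counts and were tested among 16740 genes. The 7 that did not pass were SNHG18, SNHG22, SNHG26, SNHG27, SNHG31 and both entries of SNHG28, none of which had more than 5 counts in any library.

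A snoRNA host gene is transcribed by RNA polymerase II and spliced, and the snoRNA is trimmed out of the intron that is removed. C/D box snoRNAs guide methylation of ribosomal RNA and H/ACA box snoRNAs guide its pseudouridylation, while the related scaRNAs act on spliceosomal RNAs in Cajal bodies. The spliced exons that remain often code for no protein, and several hosts, GAS5 among them, start with a 5′ terminal oligopyrimidine tract (5′ TOP, a C followed by a run of C or T) like the messenger RNAs of ribosomal proteins, and are degraded by nonsense-mediated decay when ribosomes engage them. The libraries were made from poly(A) RNA, so the values below are those of polyadenylated host transcripts and say nothing of the mature snoRNAs. For some hosts the annotated exons together fill most of the gene, so transcripts that keep an intron may be counted too.

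RNA was sequenced from A375, a human melanoma cell line with mutant BRAF, grown as a single line and exposed for 8 h. The 4 groups were DMSO vehicle, tretinoin (all-trans retinoic acid, a ligand of the retinoic acid receptors), vemurafenib (an inhibitor of mutant BRAF) and the vemurafenib + tretinoin combination, with 3 replicates each. Every group, the vehicle included, is listed at 5 µM. The study asked how the combination acts in comparison with each drug alone.

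Total counts per library lay between 13510235 and 21534377. The ERK pathway output genes checked first were lower with vemurafenib in 11 of 11 cases (median log2 difference -3.27) and in 11 of 11 with the combination (median -3.06). Of 5 retinoid response genes, 3 were called higher with tretinoin, and 4 higher and 1 lower with the combination (2 higher and 1 lower by DESeq2). Vemurafenib alone already had 2 of them higher and 2 lower than DMSO. In the combination against vemurafenib 3 were higher and 0 lower. Of 7 melanocyte lineage markers, SOX10 had 0 counts in all 12 libraries and TYR had 1 count in all, whereas MITF lay at 13.4 to 33.1 CPM (the count scaled to library size with TMM factors). Among markers of dedifferentiated melanoma, AXL (289 to 479 CPM) and VIM (795 to 1030 CPM) were high. NGFR (19.9 to 45.2 CPM) and EGFR (10.1 to 31.0 CPM) were lower, and SOX9 reached at most 1.48 CPM. The highest of 9 markers of other cell types was KRT14 with at most 31.9 CPM. Tretinoin replicate 1 stood apart: its counts differed from those of its replicates by a chi-square of 19.5 and 22.4 per degree of freedom, against 2.59 to 9.14 for the other pairs, and 21 of the 26 tested host genes were lower in it than in the mean of the other two tretinoin libraries (median log2 difference -0.25).

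The promoters of the host genes are shown first, because a 5′ TOP start is the sequence feature for which this group is known. A promoter window (RefSeq, GRCh38.p14) was found for 28 members, and for 7 of these, or 25.0%, the annotated start was a C followed by at least 4 C or T, against 4.07% of the 35116 windows in the table. Of the 7, SNHG18 was not tested and the other 6 are printed here from 40 bases before the start to 20 bases from the start on, with the run in capitals.
SNHG32 (chr6:31834876-31834935, plus strand): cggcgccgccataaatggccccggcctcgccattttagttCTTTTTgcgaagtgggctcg
SNHG19 (chr16:2155339-2155398, minus strand): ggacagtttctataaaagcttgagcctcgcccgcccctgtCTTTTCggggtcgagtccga
SNHG5 (chr6:85678714-85678773, minus strand): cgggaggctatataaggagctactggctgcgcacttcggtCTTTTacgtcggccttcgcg
ZFAS1 (chr20:49278602-49278661, plus strand): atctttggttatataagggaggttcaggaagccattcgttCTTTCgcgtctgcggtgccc
SNHG12 (chr1:28581854-28581913, minus strand): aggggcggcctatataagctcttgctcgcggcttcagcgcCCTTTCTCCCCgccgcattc
SNHG4 (chr5:139274061-139274120, plus strand): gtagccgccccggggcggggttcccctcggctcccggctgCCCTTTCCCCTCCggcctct

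A search that allowed the run to begin within 5 bases of the annotated start, chosen after the first search was seen, found one in 13 members (46.4%), against 21.1% of all windows. The next lines show SNHG7 and SNHG8, which rose with vemurafenib, and SNHG16 and SNHG17, which fell, with that run in capitals, and GAS5, in which no run was found at the annotated start.
SNHG7 (chr9:136728165-136728224, minus strand): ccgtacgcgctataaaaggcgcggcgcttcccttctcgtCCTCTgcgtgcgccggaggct
SNHG8 (chr4:118278722-118278781, plus strand): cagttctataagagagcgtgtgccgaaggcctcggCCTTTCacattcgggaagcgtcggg
SNHG16 (chr17:76557724-76557783, plus strand): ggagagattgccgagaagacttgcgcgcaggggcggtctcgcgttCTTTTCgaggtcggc
SNHG17 (chr20:38435309-38435368, minus strand): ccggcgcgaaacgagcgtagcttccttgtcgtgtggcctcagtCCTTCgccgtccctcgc
GAS5 (chr1:173869026-173869085, minus strand): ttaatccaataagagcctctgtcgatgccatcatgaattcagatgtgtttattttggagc

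Other motifs were sought on both strands of the 300-base windows. The E-box CACGTG was found in SNHG7 and SNHG30, or 7.14% of members against 7.26% of windows. The ETS core CCGGAAG was found in SNHG20 and SNHG26 (7.14% against 10.3%), and TATAAA in SNHG1, SNHG7, SNHG11 and SNHG19 (14.3% against 11.5%). No promoter is given for SNHG6, SNHG9, SNHG15 and SNHG25.

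Vemurafenib changed 11 of the 26 tested host genes, where 52.6% of all tested genes were called in either direction. GAS5, EPB41L4A-AS1, SNHG32, SNHG8, SNHG7, SNHG3, SNHG29 and DANCR rose by 1.14- to 1.59-fold, and SNHG15, SNHG17 and SNHG16 fell to between 0.511 and 0.791 of the DMSO level (edgeR quasi-likelihood test, Benjamini-Hochberg adjusted p below 0.05 over all tested genes). The 8 called higher were 30.8% of the tested members, against 26.4% of all tested genes, and the 3 called lower were 11.5%, against 26.3%. The median log2 difference was 0.20 over the tested members and 0.02 over all tested genes, and that of the members was 0.11 without DMSO replicate 2 or without vemurafenib replicate 2. With the combination 12 members changed, against 53.6% of all genes. Of these 10 were higher (38.5%, against 27.1% of all genes) and 2 lower (7.69%, against 26.5%), with a median of 0.21 against 0.03, which was 0.34 for the members without DMSO replicate 1. These comparisons share the DMSO libraries, and the comparisons of the combination with either drug share the combination libraries.

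**Figure D1:**
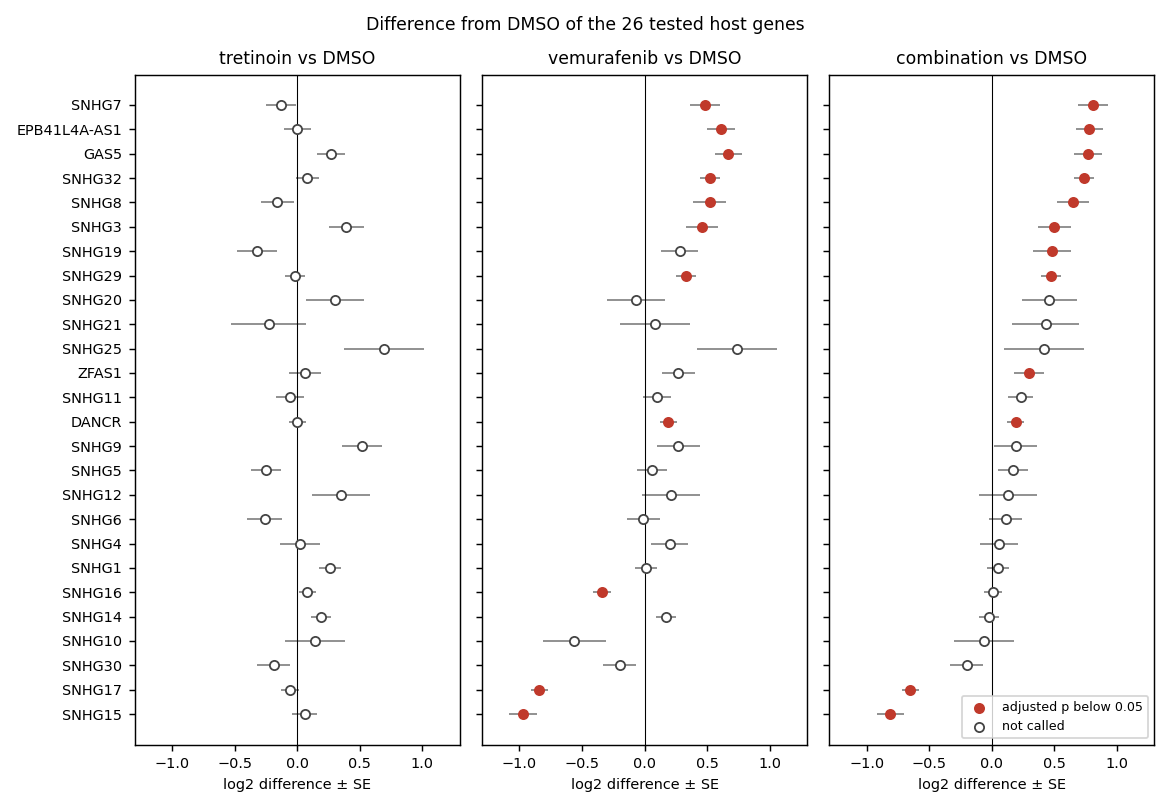
Log2 difference from DMSO (x axis, points with bars of 1 SE) of the 26 tested host genes (rows, ordered by the combination), for tretinoin, vemurafenib and the combination from left to right. Filled points have an adjusted p below 0.05: 0 with tretinoin, 11 with vemurafenib and 12 with the combination, with SNHG15 and SNHG17 at the low end in both vemurafenib arms.

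Among all 1658 tested noncoding genes that are no members, 30.1% were called higher and 9.17% lower with vemurafenib, and 34.3% and 8.75% with the combination, with medians of 0.41 and 0.48. The shares of host genes called in each direction were within 5 percentage points of these, and their median difference was smaller. Of 7 tested noncoding snoRNA hosts outside the members, 2 were higher and 0 lower with vemurafenib, and 4 higher and 0 lower with the combination (0 lower also at an unadjusted p below 0.05 and by DESeq2). Scaling by total counts alone, without the composition factor, moved the median of all genes by 0.195 with vemurafenib and 0.162 with the combination. With that scaling 15 members were higher and 2 lower with vemurafenib, where 39.3% of all genes were higher and 15.7% lower. With the combination 13 were higher and 2 lower, against 37.3% and 17.4% of all genes. The cells were measured in bulk, so fewer cells of a type and less RNA per cell cannot be told apart.

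Of 10 tested hosts of H/ACA snoRNAs, 5 were called higher and 2 lower with vemurafenib, against 26.4% and 26.3% of all tested genes. The same numbers of these hosts were called with the combination, against 27.1% and 26.5% of all tested genes. SNHG17 (chr20:38420588-38435353, minus strand, GENCODE 29 on GRCh38), host of SNORA71A to SNORA71D, had 163, 168 and 166 CPM in DMSO, 148, 159 and 169 with tretinoin, 85.6, 94.6 and 97.2 with vemurafenib and 100, 105 and 110 with the combination. Both vemurafenib arms lay below every DMSO and tretinoin library, and the groups with and without vemurafenib did not overlap. Vemurafenib gave a log2 difference from DMSO of -0.84 (SE 0.07, adjusted p = 2.5e-08, edgeR), and the combination one of -0.65 (SE 0.07, adjusted p = 4.6e-07).

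SNHG15 (chr7:44983023-44986961, minus strand), host of SNORA9, had 34.5, 31.1 and 33.1 CPM in DMSO, 31.7, 33.6 and 37.3 with tretinoin, 14.5, 16.4 and 19.7 with vemurafenib and 18.2, 20.7 and 17.2 with the combination. Its level in the 6 libraries with vemurafenib was again below that of every library without it. In the vemurafenib arm the log2 difference from DMSO was -0.97 (SE 0.11, adjusted p = 8.7e-07), and in the combination arm -0.81 (SE 0.11, adjusted p = 5.4e-06), the largest falls among the tested host genes in these comparisons.

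SNHG7 (chr9:136721366-136728184, minus strand), host of SNORA17A and SNORA17B, moved the other way. It had 103, 87.7 and 93.6 CPM in DMSO, 67.4, 88.6 and 104 with tretinoin, 127, 126 and 145 with vemurafenib and 180, 166 and 155 with the combination. The combination libraries were above all others, and the vemurafenib libraries lay between them and DMSO without overlap. Relative to DMSO, vemurafenib raised SNHG7 by 0.48 on the log2 scale (SE 0.12, adjusted p = 0.0022), and the combination by 0.81 (SE 0.12, adjusted p = 1.4e-05). The step from vemurafenib to the combination was 0.33 (SE 0.11) and was not called (adjusted p = 0.14), although it was called in the fit of these 2 groups alone (adjusted p = 0.002).

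SNHG8 (chr4:118278709-118279823, plus strand), host of SNORA24, had 46.5, 45.2 and 44.2 CPM in DMSO, 30.6, 40.9 and 49.8 with tretinoin, 57.6, 65.4 and 72.5 with vemurafenib and 79.2, 68.5 and 65.6 with the combination. Vemurafenib and combination libraries were all above DMSO and overlapped each other. Vemurafenib gave a log2 difference from DMSO of 0.52 (SE 0.13, adjusted p = 0.0022), and the combination one of 0.65 (SE 0.13, adjusted p = 0.00033).

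EPB41L4A-AS1 (chr5:112160526-112164276, plus strand), host of SNORA13, had 19.5, 18.4 and 18.8 CPM in DMSO, 15.9, 17.5 and 23.0 with tretinoin, 27.2, 28.4 and 31.2 with vemurafenib and 33.7, 32.3 and 31.2 with the combination. It was higher in every library with vemurafenib than in any without it, and the log2 difference from DMSO was 0.61 for vemurafenib (SE 0.11, adjusted p = 0.00015) and 0.78 for the combination (SE 0.11, adjusted p = 1e-05). In the annotation 49.6% of its exon bases are shared with another gene, EPB41L4A on the other strand, and reads there were counted for neither. EPB41L4A itself had 0.573 ± 0.204 CPM in DMSO and 0.798 ± 0.243 CPM with vemurafenib (SD, n = 3), and was not called.

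SNHG3, which hosts both SNORA73 genes, had 36.7, 24.2 and 25.7 CPM in DMSO, 39.3, 32.9 and 41.4 with tretinoin, 34.7, 40 and 44.5 with vemurafenib and 39.7, 44.2 and 38.5 with the combination. DMSO replicate 1 was higher than the other DMSO libraries and overlapped the vemurafenib group, but not the combination group. In the vemurafenib arm the log2 difference from DMSO was 0.46 (SE 0.13, adjusted p = 0.0079), and in the combination arm 0.50 (SE 0.13, adjusted p = 0.0043), and without DMSO replicate 2 or 3 that for vemurafenib was 0.35 or 0.37 and no longer called (adjusted p = 0.053 in both).

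DANCR, known as an inhibitor of differentiation in epidermal progenitors and host of SNORA26, lay at 61.9 to 69.4 CPM in DMSO, 69.7 to 80.2 CPM with vemurafenib and 71.8 to 78.6 CPM with the combination, ranges that do not overlap with DMSO. The differences were small, at 0.19 on the log2 scale in both (SE 0.07, adjusted p = 0.037 and 0.03), and the call with vemurafenib was lost when DMSO replicate 1 or 2, tretinoin replicate 2, vemurafenib replicate 1 or 3 or combination replicate 2 was left out (0.14 to 0.19). That with the combination was lost without DMSO replicate 1 or 2 or combination replicate 2 or 3 (0.15 to 0.20). The other H/ACA hosts, SNHG4, SNHG9 and SNHG11, did not pass the test against DMSO in either arm. SNHG4 lay at 7.63 to 12 CPM in DMSO and 9.40 to 12.5 CPM with vemurafenib, and SNHG11 at 16.5 to 20.8 and 17.5 to 21.0 CPM.

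**Figure D2:**
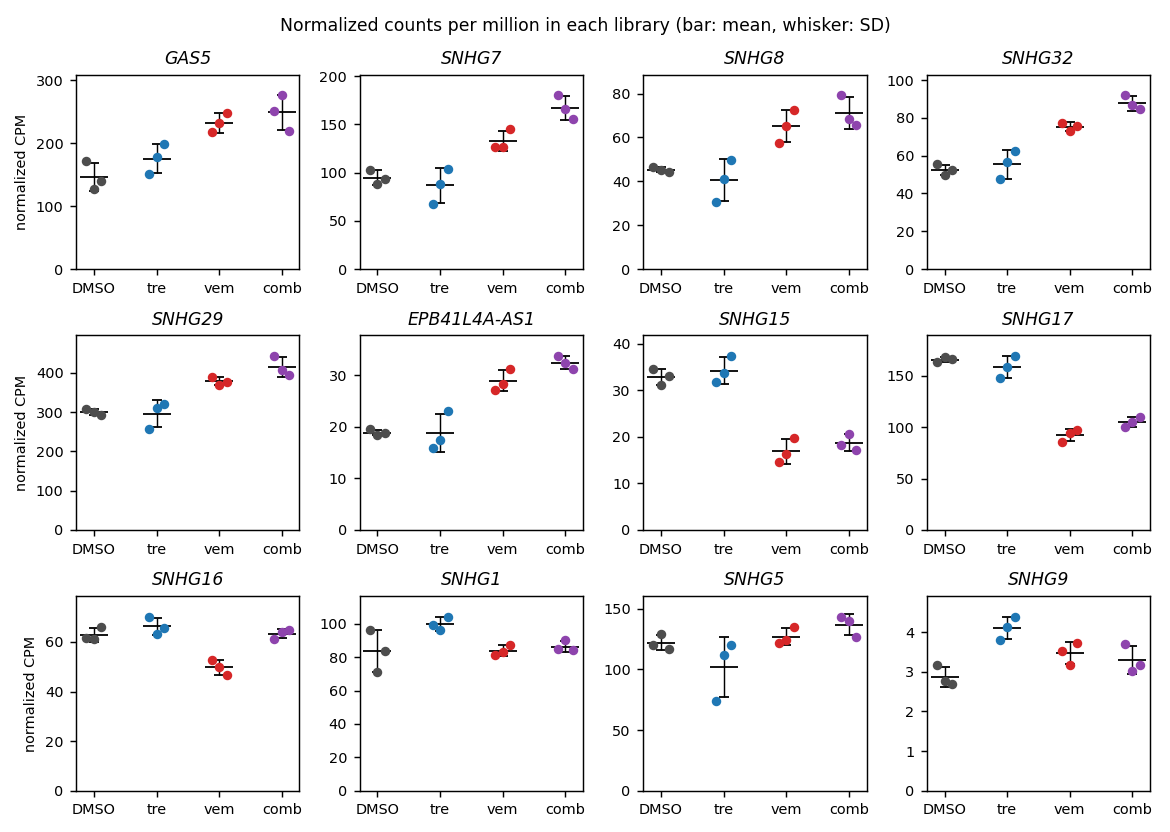
Normalized CPM (y axis, from 0) of 12 host genes in each library of DMSO, tretinoin (tre), vemurafenib (vem) and the combination (comb). Points are libraries in replicate order, the bar is the mean and the whisker the SD (n = 3); SNHG15 and SNHG17 are lower in all 6 libraries with vemurafenib, and SNHG16 only in the 3 with vemurafenib alone.

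Among 11 tested hosts of C/D snoRNAs, vemurafenib raised 2 (18.2%) and lowered 1 (9.09%), against 26.4% and 26.3% of all tested genes. The combination raised 4 (36.4%), against 27.1% of all tested genes. It lowered 0, against 26.5% (0 lower also at an unadjusted p below 0.05 and by DESeq2). SNHG32 (chr6:31834608-31839766, plus strand), host of SNORD48 and SNORD52, had 55.4, 49.9 and 52.2 CPM in DMSO, 47.4, 56.5 and 62.2 with tretinoin, 77.4, 72.9 and 75.7 with vemurafenib and 91.9, 86.6 and 84.5 with the combination. Its vemurafenib and combination groups were apart from DMSO and from each other. Vemurafenib gave a log2 difference from DMSO of 0.52 (SE 0.08, adjusted p = 5.5e-05), and the combination one of 0.74 (SE 0.08, adjusted p = 9.8e-07), and the step between them was 0.22 (SE 0.08, adjusted p = 0.19). Of the hosts with a TOP start shown above, it was the only one called with vemurafenib.

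SNHG29 (chr17:16438822-16478678, plus strand), host of SNORD49A, SNORD49B and SNORD65, was the most abundant member. It had 308, 300 and 292 CPM in DMSO, 256, 311 and 321 with tretinoin, 389, 370 and 376 with vemurafenib and 442, 408 and 394 with the combination. All libraries with vemurafenib exceeded all libraries without it, with log2 differences from DMSO of 0.33 (SE 0.08, adjusted p = 0.0021) and, for the combination, 0.47 (SE 0.08, adjusted p = 0.0001).

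SNHG16 (chr17:76557766-76565348, plus strand), host of SNORD1A, SNORD1B and SNORD1C, was called lower with vemurafenib and not called with the combination. It had 61.4, 61.1 and 66.1 CPM in DMSO, 70.0, 63.3 and 65.8 with tretinoin, 52.9, 49.7 and 46.6 with vemurafenib and 61.2, 64.1 and 64.7 with the combination. The vemurafenib group alone lay below the rest, and the combination group overlapped DMSO. Vemurafenib gave a log2 difference of -0.34 (SE 0.07, adjusted p = 0.0006), a call that was lost with scaling by total counts alone (-0.14, adjusted p = 0.12). The combination differed from vemurafenib by 0.35 (SE 0.07, adjusted p = 0.0049), the only call among the members in that comparison, where 4.47% of all genes were called, 2.27% higher and 2.2% lower. The interaction of the drugs for SNHG16, that is the effect of tretinoin on top of vemurafenib less its effect on top of DMSO, was 0.27 (SE 0.10) and was not called (adjusted p = 0.22).

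SNHG19 and ZFAS1 passed the test against DMSO only in the combination. SNHG19, a short host of SNORD60, had 21.7, 22.2 and 22.1 CPM in DMSO, 25.1, 26 and 29 with vemurafenib and 37.0, 28.5 and 26.8 with the combination. Neither arm overlapped DMSO, the log2 difference was 0.28 for vemurafenib (SE 0.15, adjusted p = 0.13) and 0.48 for the combination (SE 0.15, adjusted p = 0.011), and without combination replicate 1 the latter was 0.33 and not called (adjusted p = 0.081). The arms themselves differed by 0.20 (SE 0.14, adjusted p = 0.62), so a difference between them was not shown.

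ZFAS1, host of the SNORD12 genes, had 20.7, 19.7 and 18.3 CPM in DMSO, 20.9, 21.4 and 28.4 with vemurafenib and 27.9, 24.0 and 20.6 with the combination. The combination overlapped DMSO although it was called (log2 difference 0.30, SE 0.12, adjusted p = 0.048), whereas vemurafenib lay above DMSO in all 3 libraries and was not (0.27, SE 0.13, adjusted p = 0.084). The difference with vemurafenib ranged from 0.11 to 0.34 over the fits that left out 1 library. The combination call was kept in only 3 of 12 fits that left out 1 library, those without tretinoin replicate 1, vemurafenib replicate 3 or combination replicate 3 (range 0.19 to 0.40), and was lost with DESeq2 (adjusted p = 0.051).

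The remaining C/D hosts SNHG1, SNHG5, SNHG6, SNHG14, SNHG25 and SNHG30 were not called against DMSO. SNHG1, host of SNORD22 and of SNORD25 to SNORD31, had 70.9 to 96.2 CPM in DMSO, 81.5 to 87.5 CPM with vemurafenib and 84.3 to 90 CPM with the combination, all within the DMSO range. SNHG5, host of SNORD50A and SNORD50B, lay at 117 to 129 CPM in DMSO, 122 to 135 CPM with vemurafenib and 127 to 143 CPM with the combination. SNHG14, the long transcript of the imprinted region of chromosome 15 that spans the SNORD115 and SNORD116 clusters and runs antisense to UBE3A, lay at 81.7 to 93.6, 89.6 to 109 and 85.9 to 91.2 CPM in the same groups.

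GAS5 (chr1:173863900-173868882, minus strand) hosts both kinds, with 11 snoRNA genes in the RefSeq table of which 10 are C/D and 1 is H/ACA. GAS5 was named for its rise in growth-arrested cells. It had 171, 127 and 140 CPM in DMSO, 151, 178 and 198 with tretinoin, 217, 232 and 248 with vemurafenib and 251, 276 and 220 with the combination. All 6 libraries with vemurafenib were above all 6 without it. In the vemurafenib arm the log2 difference from DMSO was 0.67 (SE 0.11, adjusted p = 8.6e-05), and in the combination arm 0.77 (SE 0.11, adjusted p = 1.9e-05), and both were called in all 12 fits that left out 1 library.

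SNHG12, with 1 C/D and 3 H/ACA snoRNAs, varied widely among replicates, at 11.6 to 22.6 CPM in DMSO, 15.6 to 23.0 CPM with vemurafenib and 14.9 to 22.6 CPM with the combination, and no difference was detectable at this spread. The scaRNA hosts SNHG10, SNHG20 and SNHG21 were all below 6 CPM and were not called in any comparison of the main edgeR fit. SNHG20 was called higher with the combination than in DMSO without DMSO replicate 1 and with total counts alone. SNHG21, at 0.660, 2.38 and 1.75 CPM with tretinoin and 2.64, 2.42 and 2.76 CPM with the combination, had a log2 difference of 0.66 between these groups (adjusted p = 0.057), and DESeq2 called it (0.68, adjusted p = 0.049). The edgeR fits without tretinoin replicate 2, with total counts alone and with no filter called it too. SNHG10 lay at 2.96 to 3.38 CPM in DMSO and 1.97 to 2.28 CPM with vemurafenib, apart but not called (log2 difference -0.56, SE 0.25, adjusted p = 0.068). Without tretinoin replicate 1 or 3 or combination replicate 1 it was called (adjusted p = 0.034 to 0.049), as it was with no filter and with only the groups compared.

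With tretinoin alone no host gene was called in either direction, against 5.68% of all genes, 3.48% higher and 2.2% lower. At an unadjusted p below 0.05, 6 members were higher and 0 lower, and DESeq2 called 0. The lowest adjusted p was that of SNHG9, host of SNORA78, with 3.16, 2.77 and 2.69 CPM in DMSO and 3.81, 4.13 and 4.38 CPM with tretinoin. These groups did not overlap, and the log2 difference was 0.52 (SE 0.16, adjusted p = 0.073). SNHG25, host of SNORD104, was likewise apart, at 0.580, 0.743 and 0.633 CPM in DMSO and 0.806, 1.16 and 1.15 CPM with tretinoin, but rested on 9 to 26 counts a library (0.69, SE 0.32, adjusted p = 0.21). SNHG25 was also apart from DMSO with vemurafenib (0.74, SE 0.32, adjusted p = 0.06) and with the combination (0.42, SE 0.32, adjusted p = 0.28). The difference with vemurafenib was called without vemurafenib replicate 3 and with total counts alone.

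Single libraries decided other members under tretinoin. GAS5 was higher by 0.27 (SE 0.11, adjusted p = 0.16) in all libraries and by 0.37 without tretinoin replicate 1 (adjusted p = 0.025). SNHG3 and SNHG1 were higher by 0.39 and 0.26 (adjusted p = 0.099 and 0.092), and by 0.60 and 0.37 without DMSO replicate 1 (adjusted p = 0.0099 and 0.019). SNHG19 was at -0.32 (adjusted p = 0.23), and at -0.56 without tretinoin replicate 3 (adjusted p = 0.025).

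Tretinoin replicate 1 was the lowest of its group for SNHG5 (74.2 CPM against 112 and 120), SNHG6 (41.4 against 67.4 and 74.4), SNHG7, SNHG8 and SNHG19. The part of this library in the comparison of the combination with tretinoin was therefore measured by leaving it out. With all libraries 14 members were called (against 49.1% of all genes), 11 higher (against 24.1%) and 3 lower (against 25.0%). Without tretinoin replicate 1 the numbers were 9 and 3 (against 23.4% and 24.9% of all genes), with SNHG14 lost from the lower calls and SNHG1 added (-0.22, adjusted p = 0.036, against -0.21 and 0.052 with all libraries). SNHG7 (0.94, SE 0.12), SNHG8 (0.81, SE 0.13), SNHG19 (0.80, SE 0.15), EPB41L4A-AS1 (0.78, SE 0.11), SNHG32 (0.66, SE 0.08), GAS5 (0.50, SE 0.11), SNHG29 (0.49, SE 0.08) and SNHG5 (0.42, SE 0.12) were called in all 12 fits that left out 1 library, as were the falls of SNHG15 (-0.87, SE 0.11) and SNHG17 (-0.60, SE 0.07). Their size varied over these fits: SNHG5 ranged from 0.23 to 0.54, SNHG7 from 0.78 to 1.08, SNHG8 from 0.64 to 0.98 and SNHG19 from 0.63 to 1.04.

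SNHG6 was called at 0.37 (SE 0.13, adjusted p = 0.028) with all libraries and was at 0.16 without tretinoin replicate 1 (adjusted p = 0.056), and it was also lost without any 1 of the 3 combination libraries. SNHG11 (0.29, SE 0.10, adjusted p = 0.028) was lost without tretinoin replicate 1 or 2 or combination replicate 1 or 2 (0.23 to 0.30), and DANCR (0.20, SE 0.07, adjusted p = 0.029) without tretinoin replicate 2 or combination replicate 2 or 3 (0.16 to 0.18). SNHG14 (-0.21, SE 0.08, adjusted p = 0.041) was lost without tretinoin replicate 1 or combination replicate 1 or 2 (-0.22 to -0.16), and in 5 of 7 other settings.

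Between the combination and vemurafenib, 21 of the 26 host genes had a difference above 0, with a median of 0.12 on the log2 scale, against 8564 of 16740 genes and a median of 0.00. For ribosomal protein genes this was 79 of 82, also with a median of 0.12, and for noncoding genes outside the members 1002 of 1658, with a median of 0.08. Called higher were 1 member, 0 ribosomal protein genes and 29 of these noncoding genes, against 2.27% of all genes. Called lower were 0 members, 0 ribosomal protein genes and 2 of these noncoding genes, against 2.2% of all genes. For the interaction no host gene was called, against 0.806% of all genes, 0.382% higher and 0.424% lower, with 4 members higher and 3 lower at an unadjusted p below 0.05 and 0 called by DESeq2.

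Summed over all members, the host genes took 0.138% ± 0.0107 of all counts in DMSO, 0.147% ± 0.0121 with tretinoin, 0.180% ± 0.00451 with vemurafenib and 0.192% ± 0.0104 with the combination (SD, n = 3). The lowest library with vemurafenib was at 0.175% and the highest without it at 0.160%. On the normalized scale the sums were 1492 ± 73.3, 1513 ± 160, 1693 ± 51.5 and 1846 ± 83.4 CPM, and there tretinoin replicate 3, at 1665 CPM, overlapped the vemurafenib group, whose lowest library was at 1652 CPM.

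Per kilobase of exon, the host genes spanned from 79.9 CPM per kb for SNHG29 to 0.618 CPM per kb for SNHG20 in DMSO. SNHG29 was followed by SNHG19 (64.3), SNHG6 (59.0), SNHG8 (49.1), SNHG5 (43.4), GAS5 (40.2), SNHG17 (39.5), SNHG32 (29.1), DANCR (28.9), SNHG1 (22.3) and SNHG7 (21.9 CPM per kb). The ranges of the first 4 overlapped no neighbour in this order, whereas GAS5 (35.0 to 47.2) overlapped SNHG5 and SNHG17, SNHG32 overlapped DANCR, and SNHG1 overlapped SNHG7. With the combination SNHG17 had 25.1 CPM per kb and SNHG7 38.4 CPM per kb, which reversed their order. Exon length merges all annotated transcripts, including any that keep an intron, so the order also depends on the annotation. For SNHG1 it was 3756 bases in a gene at chr11:62851988-62855914, and for SNHG29 3759 bases at chr17:16438822-16478678. Levels of hosts that share exons are too low on this scale, because shared bases add length and no counts. The shared part was 72.9% for SNHG21, 48.6% for SNHG25, 46.9% for ZFAS1, 36.4% for SNHG6, 33.4% for SNHG16 and 31.4% for SNHG7.

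**Figure D3:**
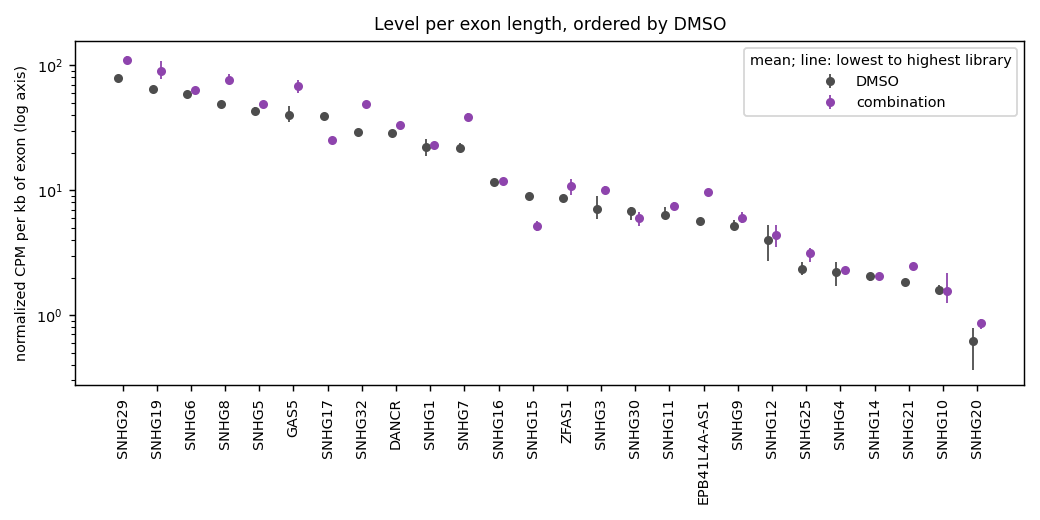
Mean normalized CPM per kb of exon (y axis, log scale) of the 26 tested host genes in DMSO and the combination, ordered by the DMSO level. Lines run from the lowest to the highest library; SNHG29 leads in both groups, and SNHG15 and SNHG17 are the members whose combination range is below DMSO.

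Genes of the proteins that work with snoRNAs were mostly lower. Of 19 core and assembly proteins of snoRNA particles, 16 were lower and 0 higher with vemurafenib (median log2 difference -0.53), and 14 were lower and 0 higher with the combination (median -0.49), with 0 higher also at an unadjusted p below 0.05 and by DESeq2. These were 84.2% and 73.7% lower, against 26.3% and 26.5% of all tested genes, of which 26.4% and 27.1% were higher. DKC1, the pseudouridine synthase of H/ACA particles, fell from 464 ± 40 CPM in DMSO to 213 ± 12.6 CPM with vemurafenib (log2 difference -1.12, SE 0.10, adjusted p = 4.7e-08). NOP56, a core protein of C/D particles, fell from 380 ± 27.2 to 211 ± 10.9 CPM (-0.85, SE 0.10, adjusted p = 2.3e-06), and the assembly factor NUFIP1 from 36.0 ± 1.75 to 21.0 ± 0.813 CPM (-0.78, SE 0.08, adjusted p = 5.2e-07).

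Of 230 tested protein-coding genes that hold an annotated snoRNA, 53 were higher (23.0%) and 72 lower (31.3%) with vemurafenib, and 50 and 74 with the combination, with medians of -0.09 and -0.03. The shares over all tested genes were 26.4% higher and 26.3% lower with vemurafenib, and 27.1% and 26.5% with the combination. Of 82 ribosomal protein genes, a family whose messenger RNAs typically carry the 5′ TOP, 1 was higher and 6 lower with vemurafenib (median -0.14), and 4 and 1 with the combination (median -0.02). This list was taken by symbol and includes genes of very low level, such as RPL10L at 0.402 CPM in DMSO. Its highest log2 difference with vemurafenib was 4.6, far from the median. Of 19 other TOP genes of translation 2 were higher and 3 lower with vemurafenib. EIF4A2, a translation initiation helicase, rose from 167 ± 17.2 to 214 ± 6.09 CPM (log2 difference 0.36, SE 0.08, adjusted p = 0.0018), and NPM1, a nucleolar protein, fell from 4780 ± 389 to 3610 ± 135 CPM (-0.40, SE 0.11, adjusted p = 0.004).

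The 6 tested host genes with a TOP start had a median log2 difference of 0.24 with vemurafenib, where 1 was called higher and 0 lower, and of 0.23 with the combination, where 3 were higher and 0 lower (0 lower at an unadjusted p below 0.05 and by DESeq2 as well). Of all tested genes, 26.4% were higher and 26.3% lower with vemurafenib, and 27.1% and 26.5% with the combination. The 16 tested hosts with a promoter but no TOP start had medians of 0.14 and 0.33, with 7 higher and 2 lower with vemurafenib and 7 higher and 1 lower with the combination. The split follows RefSeq starts and may misplace members: GAS5, known for its TOP, is among those without one, and its RefSeq start lies outside the GENCODE 29 gene.

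Among 14 regulators of TOP messenger RNAs and parts of mTORC1, 2 were higher and 7 lower with vemurafenib. With the combination 2 were higher and 6 lower. Of all tested genes, 26.4% were higher and 26.3% lower with vemurafenib, and 27.1% and 26.5% with the combination. With vemurafenib LARP4, an RNA-binding protein, fell from 169 ± 8.54 to 96.2 ± 7.28 CPM (log2 difference -0.81, SE 0.07, adjusted p = 4.6e-08). CNBP, which binds pyrimidine-rich leaders, fell from 579 ± 34.6 to 354 ± 9.38 CPM (-0.71, SE 0.08, adjusted p = 8e-07). Of 18 factors of nonsense-mediated decay and the exon junction complex, 4 were higher (22.2%) and 8 lower (44.4%) with vemurafenib (median -0.03). With the combination 3 were higher and 7 lower, against 27.1% and 26.5% of all tested genes. EIF4A3, the helicase at the core of the exon junction complex, fell from 251 ± 2.33 to 160 ± 3.02 CPM (-0.65, SE 0.08, adjusted p = 4.8e-06), and UPF3B was at 42.2 ± 6.41 and 56.4 ± 3.42 CPM (0.42, SE 0.18, adjusted p = 0.064), and was called only with the combination, at 60.2 ± 4.41 CPM (0.51, SE 0.18, adjusted p = 0.024).

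**Figure D4:**
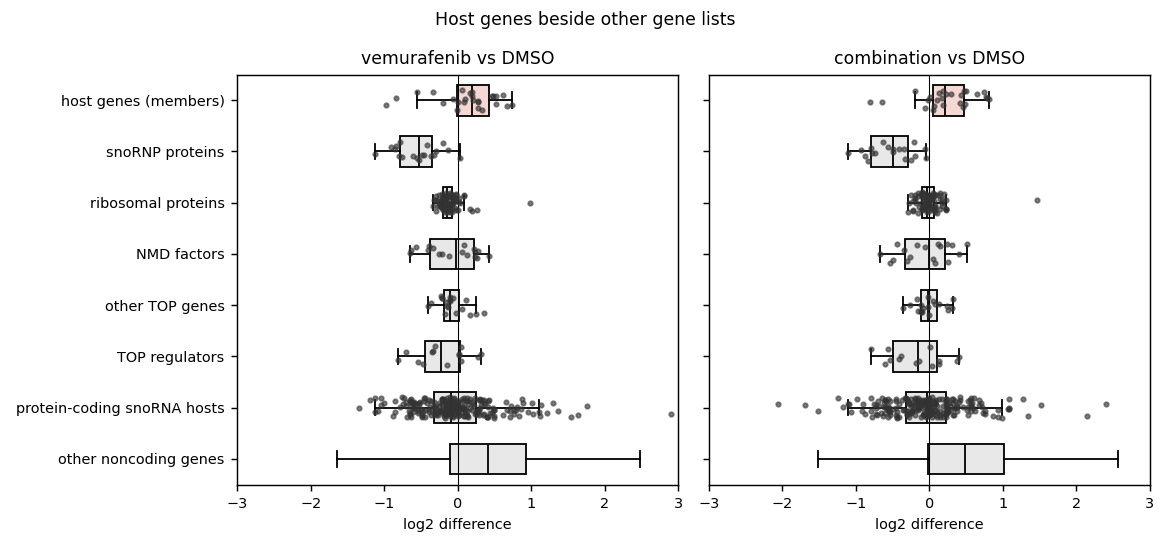
Log2 difference from DMSO (x axis) with vemurafenib and with the combination, for the tested host genes and for other gene lists. Boxes give the quartiles and the median and whiskers the furthest value within 1.5 times the box, points are single genes (not drawn for the 1658 other noncoding genes, and 1 ribosomal protein gene beyond the axis is left out); the snoRNP protein box lies below 0 in both panels and the host gene median at 0.20 and 0.21.

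Several host genes share a promoter region or exons with a protein-coding gene. SNHG3 starts 37 bases from RCC1, the exchange factor for the GTPase Ran, on the same strand, with 242 shared exon bases in the annotation. Whereas SNHG3 rose, RCC1 fell from 352 ± 2.37 CPM in DMSO to 244 ± 4.10 CPM with vemurafenib (log2 difference -0.53, SE 0.07, adjusted p = 4e-06) and 231 ± 10.1 CPM with the combination (-0.61, SE 0.07, adjusted p = 8.3e-07). SNHG1 and SLC3A2, the heavy chain of an amino acid transporter, start 188 bases apart on opposite strands. SLC3A2 had 1150 ± 71.2 CPM in DMSO, 964 ± 27.4 CPM with vemurafenib (-0.25, SE 0.07, adjusted p = 0.005) and 1350 ± 46.7 CPM with the combination (0.23, SE 0.07, adjusted p = 0.0099), while SNHG1 was not called in either.

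SNHG9 and RPS2, 99 bases apart, SNHG19 and TRAF7, 340 bases apart, and GAS5 and ZBTB37, 800 bases apart, are also divergent pairs, and RPS2, TRAF7 and ZBTB37 were not called against DMSO with vemurafenib or the combination. ZNFX1, which starts 248 bases from ZFAS1 on the other strand and shares 249 exon bases with it, was not called either. GLRX5, a mitochondrial glutaredoxin that shares 391 exon bases with SNHG10, fell from 75.4 ± 4.16 to 48.8 ± 1.43 CPM with vemurafenib (log2 difference -0.63, SE 0.09, adjusted p = 2.3e-05). UBE3A, a ubiquitin ligase opposite SNHG14, fell from 167 ± 17.1 to 111 ± 5.88 CPM (-0.59, SE 0.08, adjusted p = 6e-06). FAM69B, which shares 1094 exon bases with SNHG7, rose from 4.45 ± 0.290 to 6.46 ± 1.38 CPM with vemurafenib (0.55, SE 0.16, adjusted p = 0.0076) and was not called with the combination (0.10, SE 0.16, adjusted p = 0.62), where SNHG7 was highest. LRRC75A, with 452 bases shared with SNHG29, rose from 0.675 ± 0.141 to 1.81 ± 0.150 CPM with vemurafenib (1.42, SE 0.37, adjusted p = 0.0035) and was at 1.19 ± 0.307 CPM with the combination, which was not called (0.84, SE 0.38, adjusted p = 0.073). The MATR3 entry that shares 626 exon bases with SNHG4 was higher than DMSO with tretinoin (0.81, adjusted p = 0.04), vemurafenib (0.65, adjusted p = 0.021) and the combination (0.57, adjusted p = 0.037). GAS5-AS1, on the other strand of GAS5, was at 0.101 ± 0.031 CPM in DMSO and 0.465 ± 0.333 CPM with vemurafenib (2.15, SE 0.72, adjusted p = 0.019). Of 24 tested neighbours in all, 6 were higher (25.0%) and 5 lower (20.8%) with vemurafenib, against 26.4% and 26.3% of all tested genes. With the combination 4 were higher (16.7%) and 5 lower (20.8%), against 27.1% and 26.5% of all tested genes. The counts ignored the strand, so in exons of such pairs that the annotation does not list as shared, reads of the partners cannot be told apart.

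The 7 members that were not tested had few or no counts. SNHG26, host of SNORD93, had 23 counts over all 12 libraries and the listed SNHG28 entry 21, while SNHG22 and SNHG31 had 5 each, SNHG18 had 3, SNHG27 had 1 and the further SNHG28 entry had 0. At this depth no difference in these members was detectable.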

How the data were processed

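Poly(A) RNA libraries of 12 A375 samples were prepared with a directional kit and sequenced on an Illumina HiSeq instrument. Per sample, the authors deposited raw counts, 1 for each fragment assigned to a gene, made with STAR 2.5.3a on GRCh38.p10 and GENCODE 27 genes in union mode, ignoring strand, with no normalization. Groups and replicate numbers came from the sample labels. The labels do not say whether replicates were separate cultures, so p-values measure the spread between these samples, which may be technical.

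Genes were filtered with filterByExpr, normalized by TMM and fitted in 1 model with a term per group over all 12 samples (edgeR 4.0.16, R 4.3.3, quasi-likelihood F test), with Benjamini-Hochberg adjustment over 16740 genes and a threshold of 0.05. DESeq2 1.42.0 was an alternative, and the fit was tested on simulated data. The standard error is the log2 difference over the square root of F. CPM are counts scaled to library size with TMM factors. Positions, exon lengths and shared exons came from GENCODE 29 (58084 of 58347 genes matched), snoRNAs and promoter windows (250 bases before and 50 from the start) from RefSeq tables. All members are named, and of other lists up to 3 called genes with the largest difference with the combination, and some neighbours that share exons or a promoter region. Members and lists were chosen with earlier results of these data known.
Alternatives were DESeq2 size factors, total counts alone, the DESeq2 Wald test, other count filters, a replicate block, only the groups compared, and each library left out.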

Additional observations from a re-analysis of the deposited data

How the results depend on the processing

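No called log2 difference of a named host gene changed sign under any alternative, among size factors from DESeq2, total counts alone, the DESeq2 test, a minimum of 10 counts in all samples, no filter at all, a replicate block, only the groups compared, and each library left out. Over all members and comparisons with a call or a difference of at least 2 SE, 1227 alternative values kept their side of the threshold, 42 passed it newly and 48 lost it. With total counts alone, vemurafenib raised 15 members (39.3% of all genes were higher), tretinoin raised 1 (SNHG9, against 4.53% of all genes), and the member medians were 0.39 with vemurafenib and 0.38 with the combination, while the medians of all genes were 0.214 and 0.187. With no filter, tretinoin raised 1 member (SNHG3), against 1.76% of all genes. The combination raised 2 against vemurafenib (0.981% of all genes), and the interaction had 2 higher (SNHG7 and SNHG19, against 0.93% of all genes). The median with the combination was then 0.36, over 32 members. With only the groups compared, 3 members were higher in the combination than with vemurafenib, against 3.58% of all genes. Leaving out 1 library gave 0 to 2 members higher with tretinoin (2 without DMSO replicate 1, where 2.64% of all genes were higher). It gave 0 to 1 lower (1 without tretinoin replicate 3, where 3.82% of all genes were lower). Higher in the combination than with vemurafenib were 1 to 3 members. The 3 were found without tretinoin replicate 1, with SNHG7 and SNHG32 added, where 3.14% of all genes were higher. The member median ranged from 0.11 to 0.24 with vemurafenib (lowest without DMSO replicate 2 or vemurafenib replicate 2). With the combination it ranged from 0.18 to 0.34 (highest without DMSO replicate 1). Replicate numbers did not pair the samples (correlation of deviations for the same number -0.143 to 0.087, mean -0.031). With the replicate block 8 members were higher and 3 lower with vemurafenib, against 25.2% and 25.1% of all genes. With the combination the numbers were 9 and 2, against 25.8% and 25.4% of all genes, and ZFAS1 was lost (adjusted p = 0.068). SNHG25, with 9 to 26 counts a library, shows what depth limits: its SE was 0.32 on the log2 scale.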
